A study of Homo sapiens with 17 samples.

Results

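The genes described here are 10 kinases and adaptors of focal adhesions, the contact points at which integrins tie a cell's actin cytoskeleton to the matrix outside. They are a list given by Ensembl ID, drawn up with earlier results of these data known and not by a threshold on the values: PTK2, SRC, ILK, TLN1, FERMT2, PXN, BCAR1, VCL, ZYX and ACTN1. All 10 were found among the 19867 gene IDs of the count table. All 10 passed the filter on low counts in both experiments. The cells were SNU-761, an established line from a human liver carcinoma, given as wild type. New RNA was measured by SLAM-seq, in which cells take up thiouridine and reads with T>C conversions are counted as recently made transcripts, here in 3′ end libraries.

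The first experiment compared 2 libraries with the solvent DMSO, 2 with VT107 at 0.1 µM and 2 with VT107 at 2.15 µM. VT107 is a small-molecule inhibitor of all TEAD transcription factors. The second compared 3 libraries with a human IgG1 kappa isotype control at 5 µg/ml, 3 with intetumumab at 1.5 µg/ml and 3 with intetumumab at 5 µg/ml. Intetumumab, used as a biosimilar, is labelled as an antibody to ITGAV and ITGB3, the chains of integrin αVβ3. All 15 labelled libraries were collected at 4 h of treatment, and 1 library without thiouridine accompanied each experiment. The libraries without thiouridine are named untreated in the count table, and their titles give no dose or time. Whether the replicates were separate cultures is not stated. The p-values therefore reflect only how far these libraries spread, which may be technical.

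When integrins bind matrix, talin and kindlin attach to their cytoplasmic tails, and a plaque of adaptor proteins assembles on them. The kinases FAK and SRC phosphorylate the scaffolds paxillin and p130Cas in that plaque, while vinculin, zyxin and α-actinin connect it to actin bundles. Tension on these bundles is one of the inputs to YAP and TAZ, the coactivators that bind DNA through TEAD factors. Several of these adaptor genes are also known to respond to serum response factor, which binds a motif named the CArG box.

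Start regions are shown for the adaptor genes that hold a match to 1 of those 2 factors' motifs, since VT107 acts on TEAD factors. They come from RefSeq on GRCh38.p14, each running from 250 bases before to 50 bases after an annotated start and printed 5′ to 3′ on the strand of the gene. Capitals mark the letters GGAATG of the TEAD core (CATTCC where it lies on the other strand) and the CArG box, CCWWWWWWGG, where W is A or T. Only exact matches were searched for. The table held 16 such windows for 8 of the 10 genes. The TEAD core was found in 3 of the 16 windows, against 14% of all 35116 windows, and the CArG box in 1, against 1.29%. No window of ZYX, TLN1, ILK, FERMT2 or BCAR1 held an exact match to either motif, and neither did the other starts of ACTN1 and PXN. Forms that differ by 1 letter, such as ccttgtatgg for the CArG box in the ZYX window, were not counted in any window. Whether a match bears on a gene's change with VT107 was not tested.
ACTN1 (chr14:68977517-68977816, minus strand, 1 of 4 annotated starts): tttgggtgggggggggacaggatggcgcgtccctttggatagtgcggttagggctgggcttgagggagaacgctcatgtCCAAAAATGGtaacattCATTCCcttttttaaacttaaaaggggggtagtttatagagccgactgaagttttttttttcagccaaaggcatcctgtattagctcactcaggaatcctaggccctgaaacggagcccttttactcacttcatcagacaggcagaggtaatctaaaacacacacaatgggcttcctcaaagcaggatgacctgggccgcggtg
VCL (chr10:73997866-73998165, plus strand, its only start): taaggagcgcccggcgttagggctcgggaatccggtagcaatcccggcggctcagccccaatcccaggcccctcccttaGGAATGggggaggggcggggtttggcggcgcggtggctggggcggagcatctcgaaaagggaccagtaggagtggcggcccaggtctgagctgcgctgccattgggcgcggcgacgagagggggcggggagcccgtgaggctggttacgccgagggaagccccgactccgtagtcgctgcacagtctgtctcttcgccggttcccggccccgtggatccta
PXN (chr12:120250114-120250413, minus strand, 1 of 2 annotated starts): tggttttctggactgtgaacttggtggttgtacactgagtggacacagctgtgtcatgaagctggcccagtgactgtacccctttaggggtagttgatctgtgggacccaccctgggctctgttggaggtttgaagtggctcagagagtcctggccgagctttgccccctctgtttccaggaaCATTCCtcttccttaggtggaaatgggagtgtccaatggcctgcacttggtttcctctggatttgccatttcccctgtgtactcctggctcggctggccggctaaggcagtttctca
The ACTN1 window holds both motifs, with the CArG box upstream of the TEAD core and no overlap between them. A match describes these letters, and the counts do not say which start was used.

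Labelled libraries held between 435343 and 1778876 counts in all. Together the 10 genes made up 0.335% and 0.403% of all counts with DMSO. Their share was 0.330% and 0.271% with VT107 at 0.1 µM, and 0.277% and 0.268% at the higher dose. In the isotype libraries they made up 0.340%, 0.352% and 0.331%. With intetumumab their share was 0.298%, 0.281% and 0.266% at the lower dose and 0.213%, 0.244% and 0.250% at the higher. Every treated library thus lay below every control library of its experiment, by the smallest margin for replicate 1 at 0.1 µM. The sum rests largely on ACTN1 and PXN, with 1111 and 728 of the 3351 member counts in DMSO replicate 1. Without ACTN1, the share was 0.224% and 0.288% with DMSO, 0.268% and 0.214% at 0.1 µM, and 0.212% and 0.205% at 2.15 µM, so the lower VT107 dose then overlapped DMSO. The intetumumab libraries, at 0.169% to 0.254% without ACTN1, still lay below the isotype libraries, at 0.266% to 0.280%. Without ACTN1 and PXN, the share was 0.151% and 0.189% with DMSO, 0.1865% and 0.163% at 0.1 µM, and 0.139% and 0.143% at 2.15 µM. The intetumumab libraries, then at 0.116% to 0.1475%, again lay below the isotype libraries, at 0.161% to 0.168%. PXN counts were multiples of 7 in every labelled library, and ZYX counts were likewise multiples of 3. No larger divisor than 1 was shared by the other 8 genes over the labelled libraries. Whether reads of these 2 genes were counted repeatedly was not tested, but fewer independent reads may lie behind their counts than the numbers say.

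Counts without thiouridine were close to 0 for these genes. Over all genes, the unlabelled libraries held 10702 and 4553 counts in the VT107 and intetumumab experiments. Those totals were 0.949% and 0.628% of the mean labelled total, so the low background was not particular to these genes. In the VT107 experiment 5 of the 10 had 0 counts in the unlabelled library and the other 5 had 1 to 5, at most 0.995% of the gene's mean in labelled libraries. In the intetumumab experiment 8 had 0, VCL had 2 and ACTN1 had 1. Labelled counts ranged from 5 (TLN1) to 1295 (PXN). With 1 unlabelled library in each experiment, this background has no replicate check.

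ACTN1 fell with both agents as the mean over the 2 doses of each, and it was the only one of the 10 genes called in any of the 9 comparisons tested with edgeR. At no single dose was it called by edgeR. The mean over doses was chosen with earlier results of these data known, and the adjustment of p did not span the 9 comparisons. ACTN1 (ENSG00000072110) encodes α-actinin 1, which crosslinks actin filaments and binds integrin tails, vinculin and zyxin. Its new RNA was lower by a factor of 2.0 with VT107 (95% interval 1.61 to 2.48) and of 1.81 with intetumumab (1.50 to 2.18). ZYX stood 4.38-fold lower at intetumumab 5 µg/ml, the widest difference among the 10 genes, without passing the threshold after adjustment. The kinases PTK2, SRC and ILK and the integrin activators TLN1 and FERMT2 were not called in any comparison. Each agent was compared with its own control at each dose, as the mean of its doses, and between doses, by edgeR's quasi-likelihood test with Benjamini-Hochberg adjustment over all genes of the experiment. Calls were made where the adjusted p was under 0.05. Levels are counts per 1e6 after TMM scaling (CPM), with each experiment scaled apart, and are not compared between genes.

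**Figure D1:**
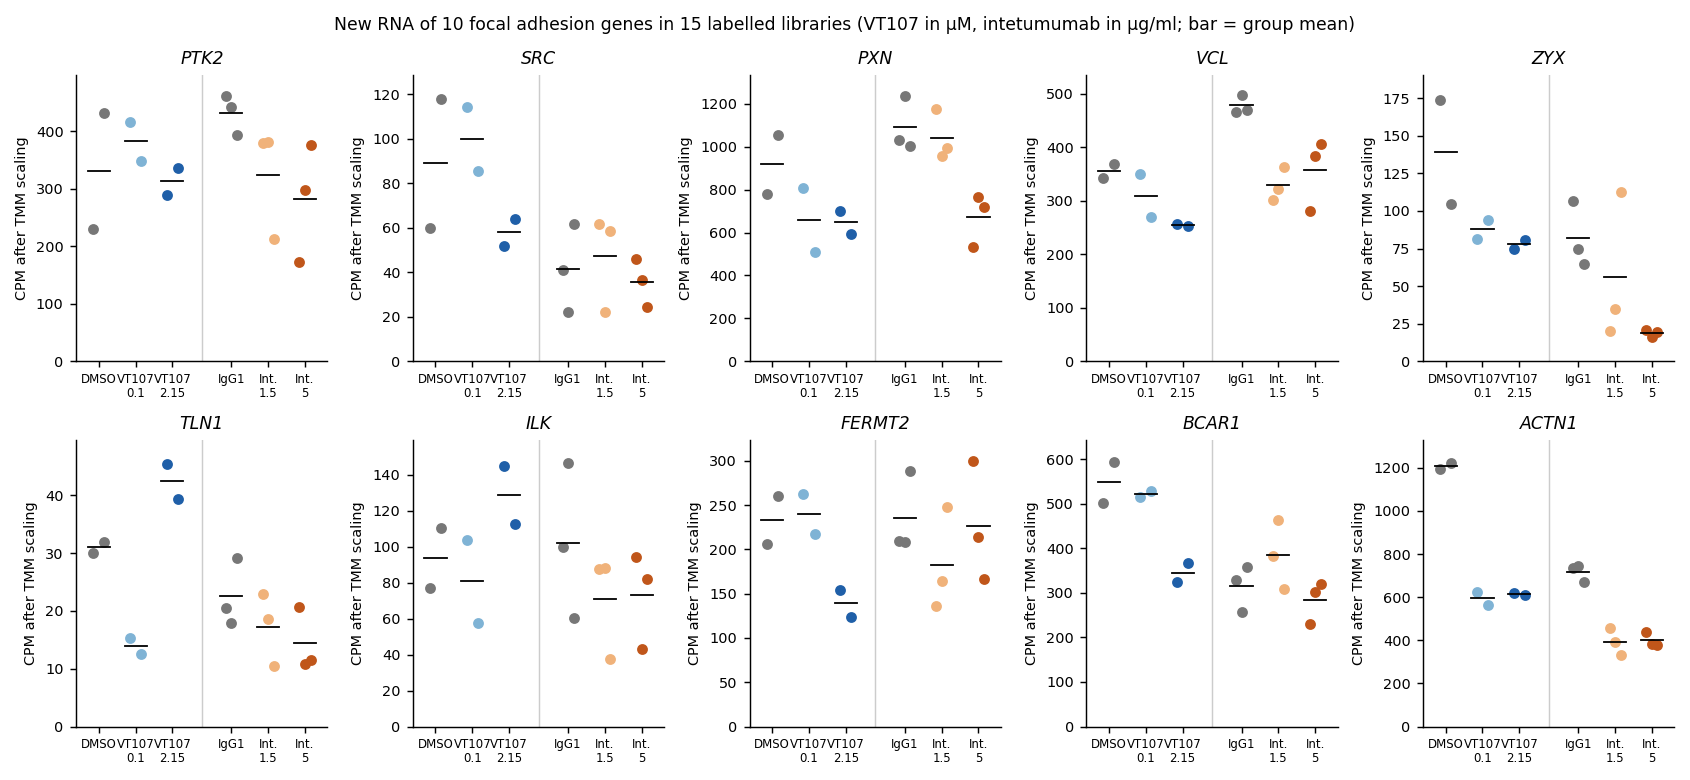
Each panel plots 1 gene, with CPM after TMM scaling on a linear axis from 0 against the 6 treatment groups of the 15 labelled libraries. Points are libraries and bars are group means. For ACTN1, the 4 VT107 libraries sit between 565 and 625 CPM, below both DMSO libraries, and the 6 intetumumab libraries sit between 330 and 455, below the 3 isotype libraries.

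Of the actin linkers, ACTN1 separated treated from control libraries in both experiments. It was at 1192 and 1222 CPM in DMSO, 625 and 565 at 0.1 µM, and 620 and 608 at 2.15 µM. No treated library came near the DMSO libraries, and both doses gave about the same level. For the mean of both doses, the log2 fold change was -0.998 (SE 0.14, 95% interval -1.31 to -0.68, edgeR adjusted p = 0.0323), the 22nd smallest p of 10083 genes. It was the 1 member of 10 called in this comparison, where edgeR called 0.397% of all genes and DESeq2, which called the same 1 member, 2.95%. At single doses the log2 fold change was -1.02 at 0.1 µM (SE 0.17, edgeR adjusted p = 0.104) and -0.98 at 2.15 µM (SE 0.16, edgeR adjusted p = 0.0846), neither called. Between the doses it was 0.04, with a 95% interval from -0.33 to 0.42. The call for the mean of both doses was lost under total count scaling (edgeR adjusted p = 0.0633). It was also lost with a block for replicate number (edgeR adjusted p = 0.0816) and without any 1 of the 6 libraries. Log2 fold changes ran from -0.96 to -1.03 in those 6 fits, each of which left 1 library in a group.

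In the antibody experiment ACTN1 was at 735, 744 and 668 CPM with the isotype. The lower dose of intetumumab had 455, 394 and 330 CPM, and the higher dose 438, 381 and 380. All 6 intetumumab libraries lay below all 3 isotype libraries, and again the 2 doses overlapped. Over both doses the log2 fold change was -0.85 (SE 0.13, 95% interval -1.12 to -0.58, edgeR adjusted p = 0.0197), the 7th smallest p of 9024 genes. ACTN1 was the 1 member of 10 called, where edgeR called 0.0887% of genes, and DESeq2 called ACTN1 and VCL, where it called 0.975% of genes. It was not called at 1.5 µg/ml (log2 fold change -0.86, SE 0.15, edgeR adjusted p = 0.171) or at 5 µg/ml (-0.84, SE 0.15, edgeR adjusted p = 0.0699). The 5 and 1.5 µg/ml groups differed by 0.02 on the log2 scale, with a 95% interval from -0.31 to 0.35. The call was lost without isotype replicate 1, 2 or 3 (edgeR adjusted p = 0.209, 0.181 and 0.152) and without replicate 2 at 1.5 µg/ml (edgeR adjusted p = 0.0776), with log2 fold changes from -0.80 to -0.91 over all leave-one-out fits.

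The 2 experiments share no library, so the falls of ACTN1 rest on separate controls. Its level in DMSO (1207 ± 20.7 CPM, SD, n = 2) was above that with the isotype (716 ± 41.5, n = 3), and the VT107 groups (595 ± 42.5 and 614 ± 8.37, n = 2 each) lay between the isotype and the intetumumab groups (393 ± 62.4 and 400 ± 32.8, n = 3 each). Solvent, antibody, experiment and the separate scaling of the 2 experiments cannot be told apart in that baseline difference. In these bulk libraries fewer cells with a transcript and less of it in each cell cannot be told apart either.

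**Figure D2:**
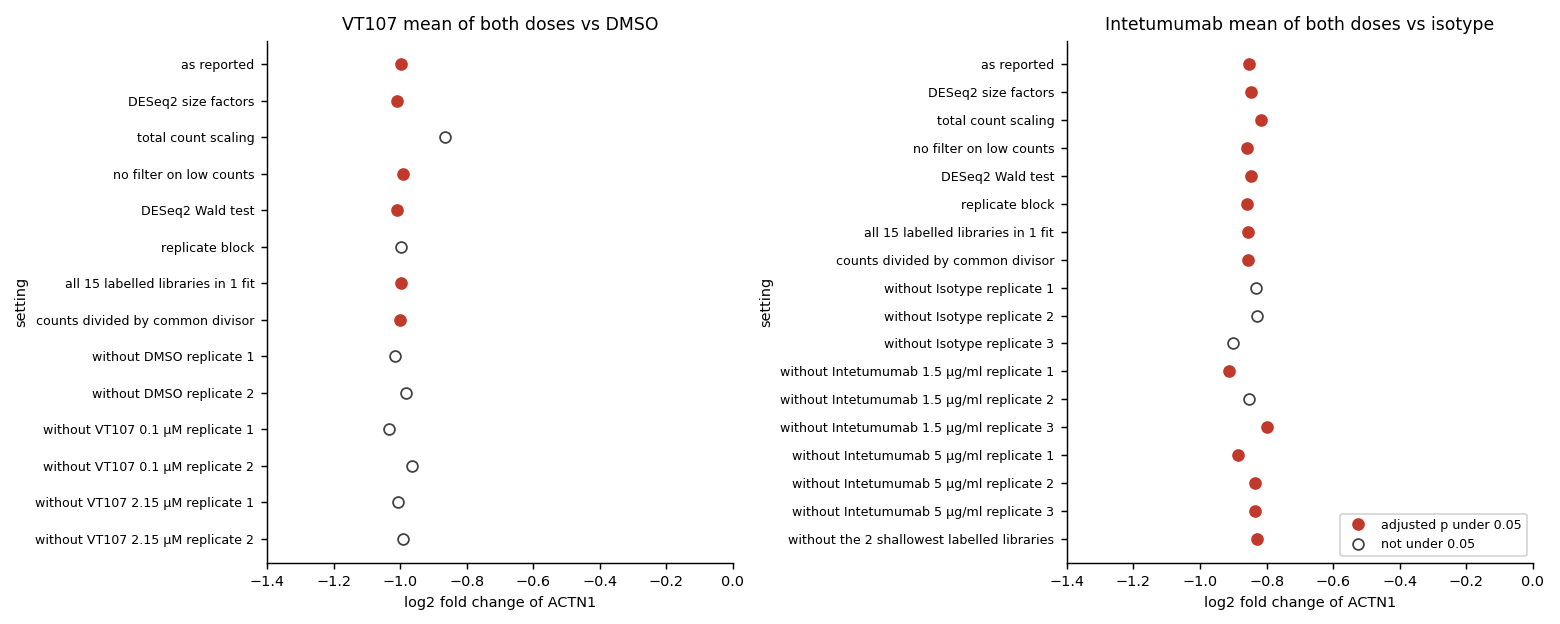
The log2 fold change of ACTN1 for the mean of both doses against control is plotted under each setting, with VT107 on the left and intetumumab on the right. Filled points have an adjusted p under 0.05 and open points do not. All values lie between -0.80 and -1.03, while the call comes and goes.

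Zyxin is a LIM protein that is recruited to actin bundles under tension, and ZYX (ENSG00000159840) had the widest difference of the 10 genes, at intetumumab 5 µg/ml. It was at 174 and 104 CPM in DMSO, 81.3 and 94.2 at VT107 0.1 µM and 74.7 and 81.0 at 2.15 µM. All 4 VT107 libraries were below both DMSO libraries, but the DMSO libraries lay far apart. Over both doses its log2 fold change was -0.75 (SE 0.28, edgeR adjusted p = 0.298), and it was -0.34 without DMSO replicate 1 and -1.08 without DMSO replicate 2. With the isotype ZYX was at 107, 74.6 and 64.8 CPM, and at intetumumab 5 µg/ml it was at 20.7, 16.2 and 19.2. These 2 groups did not overlap, with a log2 fold change of -2.13 (SE 0.54, 95% interval -3.30 to -0.96, unadjusted p = 0.00179 and edgeR adjusted p = 0.224). The counts behind it were 78, 54 and 60 against 9, 12 and 15, or 26, 18 and 20 against 3, 4 and 5 after division by 3, which left the log2 fold change at -2.12 (edgeR adjusted p = 0.284). At 1.5 µg/ml the 3 libraries disagreed, at 20.2, 34.7 and 113 CPM. Replicates 1 and 2 resembled the higher dose, and replicate 3, 1 of the 2 shallowest labelled libraries, lay above every isotype library. Without that library ZYX was called for the mean of both doses (log2 fold change -1.84, edgeR adjusted p = 0.0369), against -1.37 (edgeR adjusted p = 0.392) with it. Without both of the shallowest libraries, a setting added after the data were seen, it was -1.87 (edgeR adjusted p = 0.0675). Over all leave-one-out fits for that mean, the log2 fold change of ZYX ran from -1.14 to -1.84. Of the 17 alternative settings, 1 called ZYX.

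Vinculin binds talin and actin and strengthens the link under load. VCL (ENSG00000035403) was at 342 and 369 CPM in DMSO, 350 and 270 at 0.1 µM, and 257 and 254 at 2.15 µM. The higher dose lay below DMSO and the lower dose overlapped it, with log2 fold changes of -0.48 (SE 0.22, edgeR adjusted p = 0.458) and -0.20 (SE 0.22, edgeR adjusted p = 0.780). In the antibody experiment VCL was at 466, 498 and 471 CPM with the isotype, 301, 322 and 363 with the lower dose and 281, 384 and 407 with the higher. All 6 treated libraries were below all 3 controls. For the mean of both doses the log2 fold change was -0.48 (SE 0.14, 95% interval -0.78 to -0.18), with an unadjusted p of 0.00477 by edgeR and an adjusted p of 0.331, so the difference did not pass. DESeq2's adjusted p for it was 0.0470.

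Neither scaffold was called by edgeR. Paxillin is the docking adaptor that FAK and SRC phosphorylate. PXN (ENSG00000089159) was at 781 and 1055 CPM in DMSO, 808 and 510 at VT107 0.1 µM and 701 and 594 at 2.15 µM. The higher dose lay below DMSO, though close to its lower library, and the lower dose overlapped DMSO. At 2.15 µM the log2 fold change was -0.50 (SE 0.26, edgeR adjusted p = 0.522), and it was -0.70 without DMSO replicate 1 and -0.27 without DMSO replicate 2. The isotype libraries had 1033, 1237 and 1005 CPM, the 1.5 µg/ml libraries 1177, 957 and 994, and the 5 µg/ml libraries 532, 767 and 717. Only the higher antibody dose lay apart from the isotype, and it lay below every library at 1.5 µg/ml too. Its log2 fold change was -0.69 at 5 µg/ml (SE 0.16, 95% interval -1.03 to -0.36, unadjusted p = 0.000718, edgeR adjusted p = 0.163) and -0.07 at 1.5 µg/ml (SE 0.15, edgeR adjusted p = 0.995). Set directly, the doses differed by -0.63 (SE 0.16, unadjusted p = 0.00157, edgeR adjusted p = 0.778). With counts divided by 7 the adjusted p at 5 µg/ml was 0.310 by edgeR, and DESeq2 on undivided counts gave 0.00212.

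BCAR1 (ENSG00000050820) encodes p130Cas, a scaffold that is phosphorylated when stretched. It was at 502 and 594 CPM in DMSO, 515 and 529 at 0.1 µM, and 325 and 366 at 2.15 µM. The higher VT107 dose lay below the other 4 libraries, with a log2 fold change against DMSO of -0.67 (SE 0.19, unadjusted p = 0.00851, edgeR adjusted p = 0.265, DESeq2 adjusted p = 0.0327). At 0.1 µM it was -0.07 (SE 0.19, edgeR adjusted p = 0.919). With the antibody BCAR1 overlapped the isotype at both doses, with log2 fold changes of 0.30 at 1.5 µg/ml (95% interval -0.14 to 0.73) and -0.14 at 5 µg/ml (-0.57 to 0.30).

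Talin 1 and kindlin 2, the products of TLN1 and FERMT2, bind integrin tails and switch integrins to their active form. TLN1 (ENSG00000137076) had few counts, from 5 to 84 in labelled libraries. It was at 30.1 and 31.9 CPM in DMSO, 15.3 and 12.6 at 0.1 µM and 45.5 and 39.3 at 2.15 µM. The 2 doses thus lay on opposite sides of DMSO, with log2 fold changes of -1.14 (SE 0.43, edgeR adjusted p = 0.365) and 0.45 (SE 0.39, edgeR adjusted p = 0.726). Between them the difference was 1.60 (SE 0.42, unadjusted p = 0.00498, edgeR adjusted p = 0.905). The counts at 0.1 µM were 13 and 10. In the antibody experiment TLN1 overlapped between groups, with 18.0 to 29.2 CPM in the isotype, 10.4 to 22.9 at 1.5 µg/ml and 10.8 to 20.7 at 5 µg/ml.

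FERMT2 (ENSG00000073712) was at 206 and 260 CPM in DMSO, 263 and 217 at 0.1 µM, and 154 and 124 at 2.15 µM. Only the higher dose lay below DMSO, with a log2 fold change of -0.74 (SE 0.26, 95% interval -1.33 to -0.16, edgeR adjusted p = 0.323). At 0.1 µM it was 0.04 (-0.54 to 0.63). With intetumumab the groups overlapped, and the log2 fold changes were -0.38 (-0.96 to 0.20) at 1.5 µg/ml and -0.07 (-0.65 to 0.51) at 5 µg/ml.

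The kinases showed no called difference. PTK2 (ENSG00000169398) encodes FAK, the tyrosine kinase that integrin clustering activates. It was at 231 and 431 CPM in the DMSO libraries, which enclosed all 4 VT107 libraries (289 to 417). With the isotype PTK2 was at 461, 442 and 393 CPM, with 1.5 µg/ml at 379, 381 and 213, and with 5 µg/ml at 173, 298 and 376. All 6 treated libraries lay below the isotype libraries, the lowest of each dose being the 2 shallowest labelled libraries. At 5 µg/ml the log2 fold change was -0.60 (SE 0.27, 95% interval -1.18 to -0.01, edgeR adjusted p = 0.532) and at 1.5 µg/ml -0.40 (SE 0.27, edgeR adjusted p = 0.953). Without those 2 libraries the values for PTK2 were -0.35 and -0.18.

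SRC (ENSG00000197122), the membrane-bound partner kinase of FAK, had 16 to 122 counts per labelled library. It was at 60.1 and 118 CPM in DMSO, 114 and 85.4 at 0.1 µM and 51.9 and 64.0 at 2.15 µM, so DMSO overlapped both doses. With the antibody its 9 libraries ranged from 22.0 to 61.9 CPM with all 3 groups overlapping. ILK (ENSG00000166333) encodes integrin-linked kinase, a pseudokinase that joins integrin tails to actin through parvins. It was at 77.3 and 110 CPM in DMSO, 104 and 57.8 at 0.1 µM and 145 and 113 at 2.15 µM. The higher dose lay just above DMSO, with a log2 difference of 0.46 (95% interval -0.38 to 1.30, edgeR adjusted p = 0.700). In the antibody experiment ILK overlapped between all groups (37.6 to 146 CPM). For the mean of both doses, the 95% interval of SRC ran from -1.01 to 0.55 with VT107 and from -0.90 to 0.80 with intetumumab, and that of ILK from -0.62 to 0.86 and from -1.22 to 0.25.

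**Figure D3:**
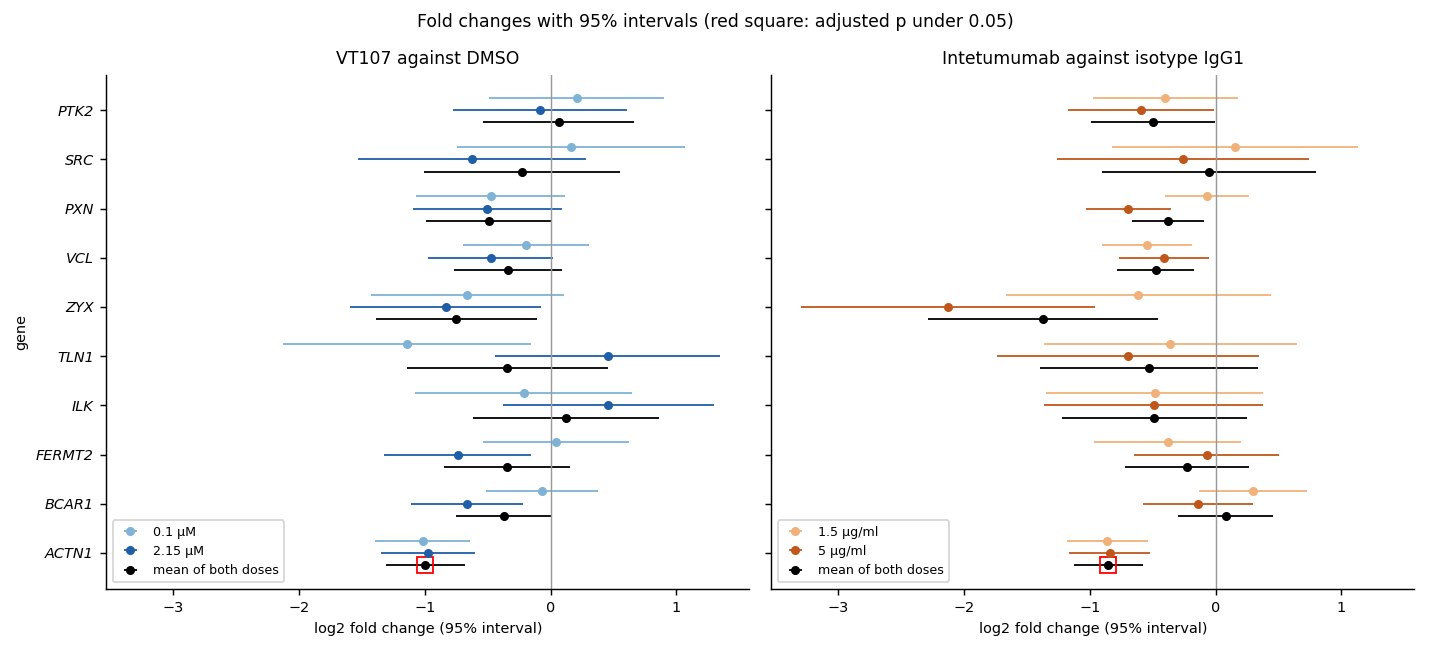
Log2 fold changes against control are plotted with 95% intervals for each gene, with VT107 on the left and intetumumab on the right, at each dose and for the mean of both doses. Red squares mark an adjusted p under 0.05, which only ACTN1 reached, for the mean of both doses of each agent.

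Counted over the 10 genes, values below control prevailed with both agents. At VT107 0.1 µM 7 of the 10 had a log2 fold change below 0, against 49.3% of all 10083 genes, and their median was -0.21 against 0.01 over all genes. With edgeR 0 of 10 were called (0% of all genes), 2 had lower values at an unadjusted p under 0.05 (6.11% of all genes) and none higher ones, and DESeq2 called 1 (1.81%). Libraries at this dose lay wholly below DMSO for 3 of 10 genes (19.3% of all genes). At 2.15 µM 8 of 10 were below 0 (48.3% of all genes), with a median of -0.56 against 0.03. Here edgeR called 0 of 10 (0.109% of all genes), 4 were lower and none higher at an unadjusted p under 0.05 (6.3% lower over all genes) and DESeq2 called 2 (2.43%). The 2.15 µM libraries lay wholly below DMSO for 6 of 10 genes (20.6% of all genes) and wholly above it for 2 (24.1%). For the mean of both doses 8 of 10 were below 0 (49.1% of all genes), with a median of -0.35 against 0.01. There ACTN1 and ZYX were lower at an unadjusted p under 0.05 by edgeR (7.49% of all genes) and had all VT107 libraries below DMSO (11.4%). These comparisons share the DMSO libraries.

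At intetumumab 5 µg/ml all 10 genes had a log2 fold change below 0, against 49.6% of the 9024 genes, with a median of -0.54 against 0.00 over all genes. That count depends on single libraries. With 1 library left out, FERMT2 (-0.07) rose to as much as 0.11 and SRC (-0.26) to as much as 0.15. EdgeR called 0 of 10 (0.0887% of all genes), 5 had lower values and none higher at an unadjusted p under 0.05 (4.9% lower over all genes), and DESeq2 called 2 (1.11%). Those 5 were ACTN1, ZYX, PXN, VCL and PTK2, and each had libraries wholly below the isotype (8.26% of all genes). At 1.5 µg/ml 8 of 10 were below 0 (49.1% of all genes), with a median of -0.39 against 0.01. EdgeR called 0 of 10 (0% of all genes), 2 were lower and none higher at an unadjusted p under 0.05 (3.07% lower over all genes), and DESeq2 called 1 (0.388%). Libraries at this dose lay wholly below the isotype for 3 of 10 genes (6.72% of all genes). For the mean of both doses 9 of 10 were below 0 (50.8% of all genes), with a median of -0.48 against -0.01. There 5 were lower at an unadjusted p under 0.05 by edgeR (4.54% of all genes), and ACTN1, VCL and PTK2 had all intetumumab libraries below the isotype (2.8%). All of these comparisons share the isotype libraries.

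Between the doses of each agent no member was called. For VT107, edgeR called 0 of 10 (0% of all genes), with 3 members at an unadjusted p under 0.05 (5.3% of all genes), namely TLN1 higher and FERMT2 and BCAR1 lower at 2.15 µM, and DESeq2 called 0 (0.0694% of all genes). For intetumumab, edgeR called 0 of 10 (0.0111% of all genes), with PXN and ZYX lower at 5 µg/ml at an unadjusted p under 0.05 (5.64% of all genes), and DESeq2 called 0 (0.0443%).

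**Figure D4:**
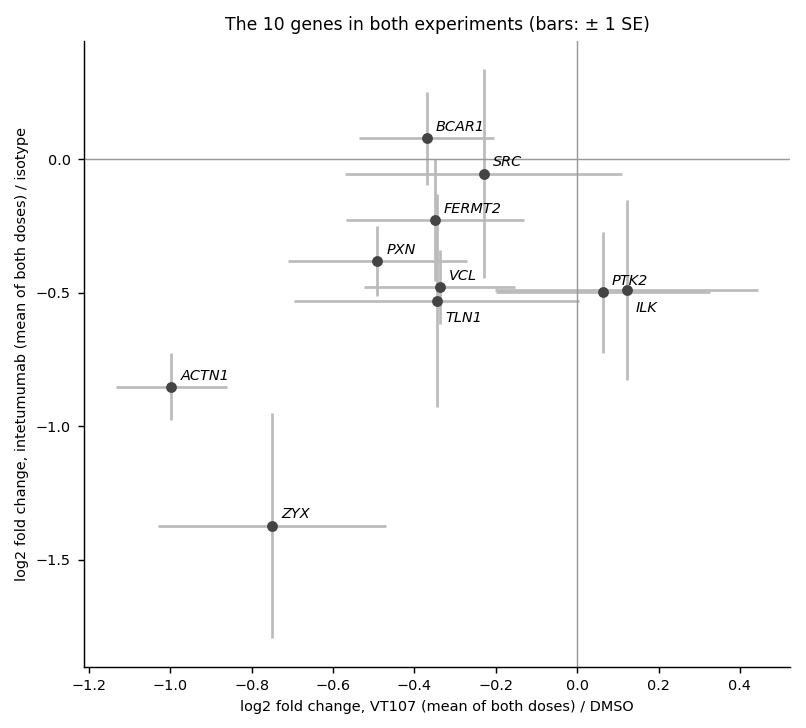
The log2 fold change with intetumumab (vertical axis) is plotted against that with VT107 (horizontal axis) for the mean of both doses, 1 point for each of the 10 genes with bars of 1 SE. ACTN1 and ZYX lie farthest toward lower values in both experiments, and PTK2 and ILK lie below 0 on the vertical axis only.

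To compare the agents, the change with 2.15 µM VT107 was set against that with 5 µg/ml intetumumab in 1 fit of all 15 labelled libraries. EdgeR called 0 of 10 members (0.0782% of 10227 genes), 0 reached an unadjusted p under 0.05 (9.06% of all genes) and DESeq2 called 0 (1.02%). The difference for ACTN1 was -0.13 on the log2 scale, with a 95% interval from -0.58 to 0.32. For ZYX it was 1.29 (-0.22 to 2.81), for TLN1 1.16 (-0.10 to 2.43), for ILK 0.95 (-0.32 to 2.23), for BCAR1 -0.52 (-1.15 to 0.10) and for FERMT2 -0.66 (-1.504 to 0.18). The values for PTK2, PXN, VCL and SRC were 0.52, 0.20, -0.06 and -0.35. The intervals of all 10 genes include 0, which does not show that the agents act alike on these genes.

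ACTN1 lies at chr14:68874128-68979302, ZYX at chr7:143381345-143391111, VCL at chr10:73998116-74121363 and PXN at chr12:120210447-120265730 on GRCh38.p14. The annotated span of PXN overlaps that of its antisense gene PXN-AS1, ILK overlaps TAF10, VCL overlaps AP3M1 and ZYX overlaps FAM131B. Whether reads were counted by strand is not given in the sources used here, so reads from these neighbours cannot be told apart from those of the member. The span of ACTN1 overlaps BANF1P1, HMGN1P3 and LOC124903336, the first 2 of them pseudogenes. That of PXN also overlaps the pseudogene RPS20P31 and LOC124903034.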

How the data were processed

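The authors deposited raw counts of reads per Ensembl gene, made with SLAM DUNK, per the series design text, and placed on GRCh38 per the submitters' processing notes. Its version, its annotation, the conversions required and the treatment of multi-mapped reads were not given in the sources used here. All 17 columns were matched to samples by name. The 10 members were named by their given IDs. The RefSeq table held 0 Ensembl IDs, so the wider adhesion list and the liver and other cell type markers were not analysed here.

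Counts were filtered with filterByExpr (minimum count 10), scaled by TMM and tested with edgeR 4.0.16 (quasi-likelihood F-test, two-sided, R 4.3.3), each experiment on its own, with 10083 and 9024 genes tested. SE is the log2 fold change over the root of F, and 95% intervals use the test's degrees of freedom. DESeq2 1.42.0 and the settings of the closing section were alternatives. Calls use an adjusted p under 0.05. Intervals and totals between 435343 and 1778876 counts reflect libraries without a stated correction for copied molecules. The fit was tested on simulated data with larger changes than most seen here, placed in genes above a floor on mean counts. That test does not cover small changes or members with few counts. Members, lists and comparisons were chosen with earlier results of these data known, the mean of both doses included. All 10 members are described whatever their values.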

Additional observations from a re-analysis of the deposited data

How the results depend on the processing

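The count of members called, by edgeR unless DESeq2 is named, moved with the setting. At VT107 0.1 µM it was 1 (ACTN1) with no filter on low counts, with DESeq2 and with all 15 labelled libraries in 1 fit, against 0. At VT107 2.15 µM it was 1 (ACTN1) with no filter, 2 (ACTN1 and BCAR1) with DESeq2 and 1 (ACTN1) in the fit of 15. For the VT107 mean it was 0 under total count scaling, 0 with a replicate block (ACTN1 edgeR adjusted p = 0.0816) and 0 without each library in turn, against 1. At intetumumab 1.5 µg/ml it was 1 (ACTN1) with DESeq2. At intetumumab 5 µg/ml it was 1 (ACTN1) with no filter, 2 (ACTN1 and PXN) with DESeq2 and 1 (ACTN1) in the fit of 15. For the intetumumab mean it was 2 (ACTN1 and VCL) with DESeq2 and 0 to 2 when libraries were left out in turn, and the replicate block kept 1. Deviations of same-numbered samples from their group means correlated near 0 over all genes that passed the filter. The r values were -0.0157 to 0.00589 in the VT107 experiment and -0.0302 to 0.0438 in the intetumumab experiment. Noise at low counts can also hold r near 0, so these values do not settle whether the numbers pair the samples. ACTN1 stayed below control in every setting for each dose and mean. Leaving out a library also changed how many genes passed the filter. Of the 90 log2 values of the 10 members over 9 comparisons, 23 changed sign when 1 library was left out, 39 more moved by over 1.5 times and 28 did neither.

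No value that changed sign had been called. Under total count scaling BCAR1 at VT107 0.1 µM was 0.036, PTK2 at 2.15 µM 0.072, PXN between VT107 doses 0.024 (0.0015 with no filter), ILK between intetumumab doses 0.0046 and VCL in the difference between agents 0.052. ILK between intetumumab doses was 0.0088 with DESeq2 and 0.11 with the replicate block, and SRC for the intetumumab mean 0.0064 with that block. Without the 2 shallowest libraries, added after the data were seen, SRC at 1.5 µg/ml was -0.013 and ACTN1 between doses -0.15. The other changes came from leaving out 1 library, and the log2 ranges over those fits follow. For VT107 0.1 µM they were PTK2 -0.17 to 0.72, SRC -0.24 to 0.73, FERMT2 -0.12 to 0.21, ILK -0.70 to 0.14 and BCAR1 -0.19 to 0.049. For VT107 2.15 µM they were PTK2 -0.46 to 0.44. For the VT107 doses against each other they were PXN -0.31 to 0.36 and ACTN1 -0.021 to 0.13. For the VT107 mean they were PTK2 -0.32 to 0.58, ILK -0.12 to 0.40 and SRC -0.63 to 0.33. For intetumumab 1.5 µg/ml they were SRC -0.15 to 0.57 and PXN -0.17 to 0.027. For intetumumab 5 µg/ml they were SRC -0.57 to 0.15 and FERMT2 -0.31 to 0.11. For the intetumumab doses against each other they were ILK -0.28 to 0.27, ACTN1 -0.087 to 0.14 and PTK2 -0.46 to 0.045. For the intetumumab mean they were BCAR1 -0.053 to 0.18 and SRC -0.36 to 0.36. For the difference between agents they were PXN -0.0091 to 0.41, SRC -0.78 to 0.19 and VCL -0.21 to 0.051.

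Depth limits TLN1, SRC, ILK and ZYX most, since each has libraries with under 20 counts. With 2 or 3 libraries in a group, intervals are wide and 1 library can end a call.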
